A study of Mus musculus with 3 samples.

Results

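Osteoblasts, the cells that lay down bone, arise from mesenchymal precursors under the control of a small group of transcription factors. Sp7, also called osterix, is a zinc finger protein without which precursors do not become osteoblasts. The homeobox factors of the Dlx and Msx families pattern the skull and limbs and bind AT-rich DNA around the core TAATTA, with Dlx factors mostly activating osteoblast genes and Msx factors often repressing them. Twist1 and Zfp521 are known as brakes on osteoblast maturation, Cbfb is the non-DNA-binding partner that stabilises Runt-domain factors on DNA, and Mef2c is a MADS-box factor known from muscle, hypertrophic cartilage and osteocytes.

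These 10 genes (Sp7, Dlx3, Dlx5, Dlx6, Msx1, Msx2, Twist1, Cbfb, Mef2c and Zfp521) were chosen by name, out of 18193 genes on the array. All probe sets whose only gene symbol was one of the 10 were taken, 18 in all. Mef2c had 5 probe sets, 4 of the genes (Dlx3, Msx1, Msx2 and Zfp521) had 2, and the other 5 had 1. The RNA came from MC3T3-E1, an established preosteoblast line of fibroblast-like cells from C57BL/6 mouse calvaria, the flat bone of the skull. All cultures were kept for 3 days at 37 °C with 5% CO2 in MEM α with 10% fetal bovine serum. For normal medium nothing more is recorded. For osteogenic medium, vitamin C for collagen was added as ascorbic acid 2-phosphate at 150 µM and phosphate for mineral as beta-glycerophosphate at 10 mM, and the last culture was in osteogenic medium with 0.6% dimethyl sulfoxide (DMSO), a solvent. The labels state that calcium, stained with alizarin red S, was increased at 0.6% DMSO. There was 1 array for each condition and no replicate, so no test between conditions could be made and the spread between cultures is unknown.

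Values are on a log2 scale and cannot be compared in level between probe sets. Values up to the 50th percentile of the pooled arrays, 3.54, were treated as background, and this limit is called the floor. Where a gene had several probe sets, the one with the highest mean over the 3 arrays leads, and a change is the log2 difference of 2 arrays. That choice uses the compared arrays themselves. In normal medium the leading probe sets of Dlx3 and Mef2c read below another one, 4.01 beside 4.17 and 3.84 beside 3.87. Their lead therefore comes from the arrays where they were higher, and so do the counts and ranks that rest on them. Changes of at least 1 in size, which is 2-fold, were counted as rises or falls. The only available yardstick for noise was the disagreement of 2 probe sets of a gene. The changes of such pairs differed with an SD of 0.19 between osteogenic and normal medium, over 5183 genes, and with an SD of 0.15 between osteogenic medium with and without DMSO. Where the dimmer probe set of a pair was under 5, these SDs were 0.23 and 0.19. They cover probe behaviour and isoforms and leave out the variation between cultures. In bulk RNA, more cells with a transcript and more transcript per cell cannot be told apart.

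The labelled cell type was checked first. All 7 osteoblast identity markers (Col1a1, Col1a2, Sparc, Alpl, Ibsp, Pth1r and Postn) were above the floor on all 3 arrays, the lowest of them at 6.61. The arrays had medians between 3.54 and 3.58. The hybridisation spikes, control transcripts added in fixed amounts, had a median change of 0.10 between osteogenic and normal medium over 18 probe sets, and of -0.03 when DMSO was added. Many probe sets share one exact value within an array. On the array of osteogenic medium, for example, 247 probe sets held the value given for Dlx6, so small steps of the dim genes are coarse. Larger steps also began or ended on shared values. The leading value of Dlx3 in osteogenic medium was held by 64 probe sets and that of Mef2c with DMSO by 66. For Sp7 in normal medium the number was 29, and for Dlx5 in osteogenic medium 25. Values were also shared between arrays. Of the 45037 probe sets that are not controls, 37.4% held an equal value on all 3 arrays. Between osteogenic and normal medium, 2842 of 11417 genes above the floor on at least 1 of those arrays changed by exactly 0. The effect of such equal values on the SD between probe sets was not tested.

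The promoter windows of 2 of the genes, Mef2c and Msx2, show what a homeobox core looks like. RefSeq windows of GRCm38.p6, running from 250 bases before to 50 bases after a start, were matched by symbol for 5 of the 10 genes (Cbfb, Mef2c, Msx1, Msx2 and Twist1), in 7 windows. No entry was matched for Sp7, Dlx3, Dlx5, Dlx6 and Zfp521. The core TAATTA, which reads the same on both strands, was in 2 of the 7 windows and is in capitals here. The first belongs to the middle of 3 starts of Mef2c, chr13:83523406-83523705 on the plus strand. The second belongs to Msx2, chr13:53472731-53473030 on the minus strand.
Mef2c: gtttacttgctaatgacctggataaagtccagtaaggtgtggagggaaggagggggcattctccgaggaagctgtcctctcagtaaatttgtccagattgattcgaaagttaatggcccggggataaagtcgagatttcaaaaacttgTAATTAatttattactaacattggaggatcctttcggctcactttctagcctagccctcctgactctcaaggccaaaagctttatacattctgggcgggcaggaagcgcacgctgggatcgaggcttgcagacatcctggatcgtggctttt
Msx2: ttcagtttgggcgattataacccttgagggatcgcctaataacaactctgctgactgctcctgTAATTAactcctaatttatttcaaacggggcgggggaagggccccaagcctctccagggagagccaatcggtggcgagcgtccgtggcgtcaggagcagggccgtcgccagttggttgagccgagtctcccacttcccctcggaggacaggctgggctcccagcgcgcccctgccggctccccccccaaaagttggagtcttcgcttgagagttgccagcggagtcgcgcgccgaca
The core begins 102 bases before the start of Mef2c and 187 bases before that of Msx2. Of all 32851 windows of this length, 5.29% held it. The Runt core TGTGGT, searched on both strands, was in 16.8% of all windows and the MEF2 consensus in 0.557%, and neither was found in the 7 windows. The E-box CANNTG, the kind of site that Twist1 binds as a dimer, was in 72.3% of all windows and in 4 of these 7. No binding was measured, and a match is a description of the letters.

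**Figure D1:**
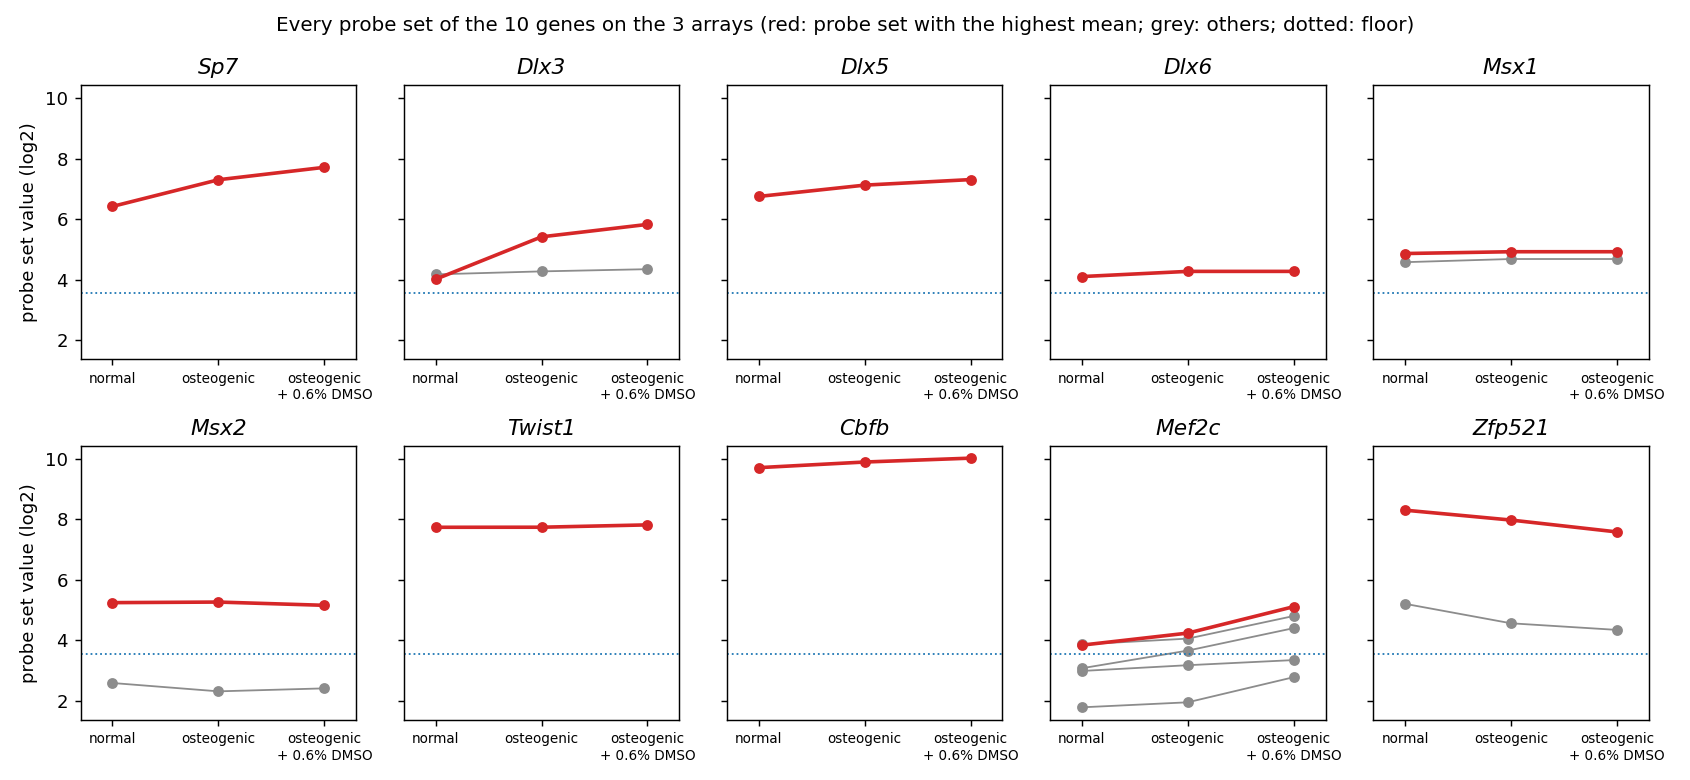
Each panel plots the log2 value (y axis) of every probe set of a gene on the 3 arrays (x axis, normal medium on the left and DMSO on the right), red for the probe set with the highest mean, grey for the others, with the floor of 3.54 dotted. Sp7, Dlx3, Dlx5 and Mef2c climb from left to right, Zfp521 declines, and Msx1, Msx2 and Twist1 stay within 0.09 of their value in normal medium on the red lines.

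Sp7 was higher at each step. Its probe set read 6.42 in normal medium, 7.30 in osteogenic medium and 7.72 in osteogenic medium with DMSO. The first step was 0.88 (1.84-fold) and the second 0.41 (1.33-fold). Neither step reached 2-fold alone, and both were beyond the SD between probe sets. Together they amounted to 1.30, so that Sp7 was 2.45-fold above normal medium in osteogenic medium with DMSO and was counted as risen there. Among the 11226 genes above the floor on both of those arrays, it had the 32nd largest rise. Sp7 has 1 probe set on this array, so no second reading of the gene exists here.

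Dlx3 and Dlx5 were higher at both steps, by different amounts. Dlx3, which is active late in osteoblast differentiation and in skin, hair and teeth, read 4.01 in normal medium, 5.41 in osteogenic medium and 5.83 with DMSO on its leading probe set. This was a rise of 1.41 (2.65-fold) with osteogenic medium and a further 0.41 with DMSO, 1.82 or 3.52-fold in all. The other probe set of Dlx3 read 4.17, 4.27 and 4.34, which is 0.10 and 0.07 for the same steps. The probe sets of Dlx3 thus pointed the same way and differed in the size of the first step by far more than the SD between probe sets, and with the median of both probe sets the first step was 0.75, under 2-fold.

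Dlx5, an early activator of osteoblast genes, read 6.75, 7.13 and 7.31. It was higher by 0.37 with osteogenic medium, by 0.18 with DMSO, and by 0.56 (1.47-fold) over both. Dlx6, its neighbour in the genome and close relative, read 4.10, 4.27 and 4.27. Its first step of 0.17 was within the SD between probe sets, and its values with and without DMSO were equal. Of the Dlx genes outside the 10, Dlx1 read 6.51, 6.34 and 5.99 and Dlx2 read 6.75, 6.60 and 6.52, the opposite direction to Dlx3 and Dlx5. Those signs were kept under median centring, quantile normalization and cyclic loess, but of the 4 steps only that of Dlx1 with DMSO, -0.35, was beyond the SD between probe sets. Dlx4, which lies beside Dlx3, was under the floor on all 3 arrays, between 3.17 and 3.32.

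Both Msx genes were above the floor and nearly flat. Msx1, known from tooth and palate development, read 4.86 in normal medium and 4.92 in both osteogenic media. Its other probe set read 4.57 in normal medium and 4.68 in both osteogenic media. Msx2, in which a gain of function causes premature fusion of skull sutures, read 5.25, 5.27 and 5.16, and its other probe set was under the floor on all 3 arrays. The steps of the leading probe sets were 0.06 and 0.02 with osteogenic medium and 0 and -0.11 with DMSO, all within the SD between probe sets.

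Twist1, a basic helix-loop-helix factor that holds back the Runt-domain factors in early osteoblasts, read 7.74, 7.74 and 7.82. Its steps were 0.002 and 0.08. Cbfb, whose transcript is broadly expressed, read 9.72, 9.90 and 10.03. It was higher by 0.19 with osteogenic medium, which equals the SD between probe sets to 2 decimals, by 0.13 with DMSO and by 0.31 (1.24-fold) over both. Twist1 and Cbfb have 1 probe set each.

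Zfp521, a zinc finger factor that antagonises Runt-domain activity in osteoblast precursors, was lower at both steps, under each of the processing alternatives tried as well. It read 8.31 in normal medium, 7.98 in osteogenic medium and 7.59 with DMSO. The steps were -0.33 and -0.39, and over both the change was -0.72, 1.65-fold lower and under the 2-fold limit. Its other probe set read 5.21, 4.56 and 4.34, with steps of -0.64 and -0.22, so both probe sets were lower at both steps. Its relative Zfp423, which has the same many-fingered structure and is known from preadipocytes, read 7.07, 6.58 and 5.98. It fell by 1.08 (2.12-fold lower) between normal medium and osteogenic medium with DMSO.

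Mef2c differed from Sp7 and Dlx3 in that its larger step was the one with DMSO. The leading probe set read 3.84 in normal medium, 4.24 in osteogenic medium and 5.11 with DMSO. It was higher by 0.40 with osteogenic medium and by 0.88 (1.83-fold) with DMSO. The second step had the 8th largest increase among the 11261 genes above the floor on both arrays. Over both steps Mef2c rose by 1.27 (2.42-fold).

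The other probe sets of Mef2c were dim. One read 3.87, 4.06 and 4.80, with steps of 0.19 and 0.75, and its change over both was 0.94, under 2-fold. Another went from 3.07, under the floor, to 3.66 and 4.40, with a second step of 0.74. The remaining 2 were under the floor on all 3 arrays, at 2.98, 3.18 and 3.35 and at 1.78, 1.95 and 2.78. All 5 had their highest value with DMSO and their lowest in normal medium, and the 3 above the floor on both osteogenic arrays agreed on the second step to within 0.13. With the median over all 5 probe sets, which was under the floor in normal medium, the sum of both steps was at least 0.86, a bound that does not reach the 2-fold limit for a count.

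Mef2c is also expressed in muscle, endothelium and blood cells, so markers of these were read beside it. Of 10 skeletal muscle markers, 3 were above the floor in normal medium and 2 in each osteogenic medium, and their summed linear values were 96.1, 90.6 and 93.5. Des at 5.06 and Ckm at 3.87 were above it with the same value on each array, and Mylpf at 3.79 in normal medium only. Myod1 and Myf5, which define muscle precursors, were under the floor at no more than 2.48 and 1.04. Of 7 endothelial markers, 1, 0 and 0 were above the floor, with sums of 35.5, 32.6 and 34.3, and Pecam1 and Cdh5 were at most 2.08 and 2.41. Of 9 macrophage and osteoclast markers 3 were above the floor on each array, with sums of 764, 798 and 717. The sums were mostly Ctsk, a protease that fibroblast-like cells also make. Lyz2 read 5.96, 5.57 and 5.40 and Csf1r read 4.66, 4.41 and 4.41. Ptprc, which marks all white blood cells, was 1.38 throughout. The part of other cell types in the change of Mef2c was not tested.

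Cartilage markers were present, with 6 of 9 above the floor on each array and summed linear values of 577, 672 and 733. Col2a1, the main cartilage collagen, was higher by 0.85 with osteogenic medium and by 0.06 with DMSO, and Matn3, a cartilage matrix protein, by 0.67 and 0.16, and with osteogenic medium these were the 2 that passed 1.5-fold. Sox6, a cartilage transcription factor, was at -0.35 and then at 0.54 with DMSO, while Sox9 read 7.52, 7.52 and 7.42 and Acan was under the floor at 2.67 on each array. The part of cartilage-like cells in the changes of Sp7, Dlx3 and Mef2c was not tested. All 6 adipocyte markers with a probe set were under the floor.

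**Figure D2:**
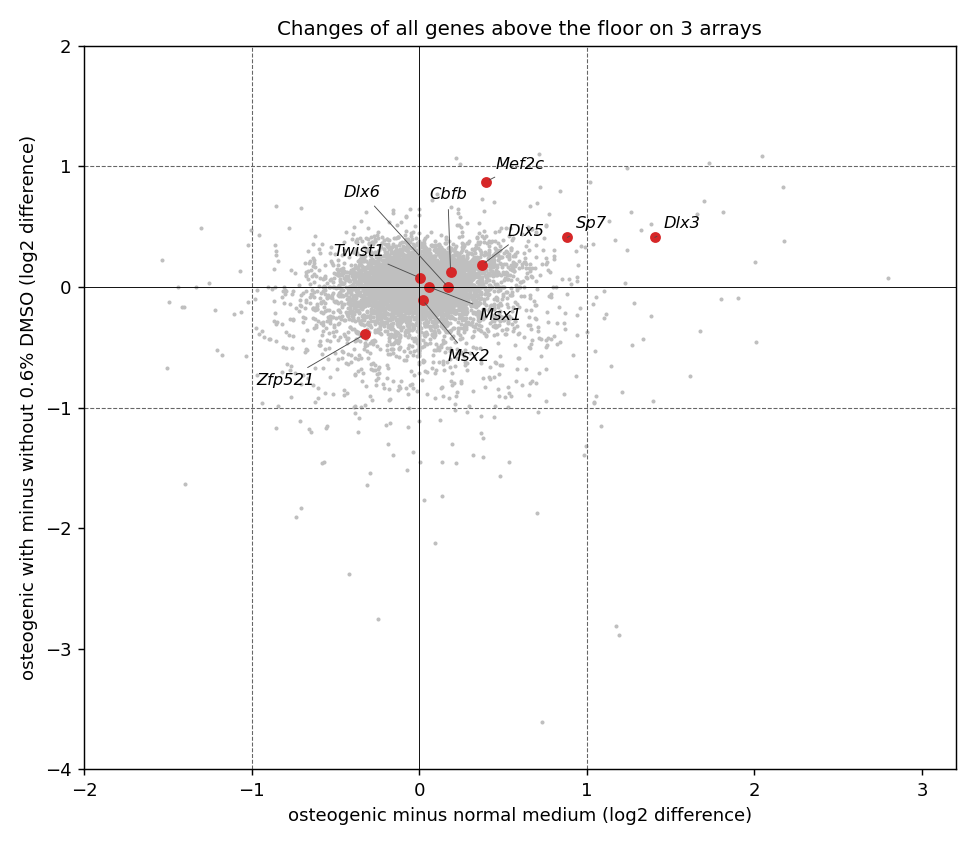
Grey points are the 11203 genes that exceed the floor on every array, each plotted by its log2 change between osteogenic and normal medium (x axis) and between osteogenic medium with and without 0.6% DMSO (y axis), with the 10 genes in red and 2-fold changes dashed. Dlx3 at 1.41 is the only red point beyond a dashed line, Sp7 lies at 0.88 and 0.41, Mef2c at 0.40 and 0.88, and Zfp521 at -0.33 and -0.39. Both axes share the array of osteogenic medium without DMSO, with opposite signs.

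As a group, 1 of the 10 genes (Dlx3) rose at least 2-fold and none fell between osteogenic and normal medium. Of the 11417 genes above the floor on at least 1 of those arrays, 0.473% rose and 0.184% fell. The median change of the 10 was 0.18, beside 0 over all genes, with a range from -0.33 to 1.41. In sign, 9 were higher and Zfp521 was lower, beside 4162 higher, 4413 lower and 2842 equal of the 11417 genes. The steps of Dlx6, Msx1, Msx2 and Twist1 were within the SD between probe sets, and that of Cbfb was about equal to it. Centring each array on its median turned Msx2 to -0.02 and Twist1 to -0.04. At 1.5-fold, Sp7 and Dlx3 were counted as risen and none as fallen, beside 1.75% of all genes risen and 1.61% fallen.

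Between osteogenic medium with and without DMSO, none of the 10 changed 2-fold, while 0.0525% of 11423 genes rose and 0.552% fell. The median was 0.10, beside 0 over all genes. At 1.5-fold, Mef2c was counted as risen and none as fallen, beside 0.35% of all genes risen and 2.12% fallen. This comparison shares the array of osteogenic medium with the first.

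Between osteogenic medium with DMSO and normal medium, which is the sum of both steps, Sp7, Dlx3 and Mef2c rose at least 2-fold and none fell, beside 0.604% of 11422 genes that rose and 1.34% that fell. The median of the 10 was 0.24. At 1.5-fold, no further gene of the 10 rose, beside 2.59% of all genes, and Zfp521 was counted as fallen, beside 4.19% of all genes.

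**Figure D3:**
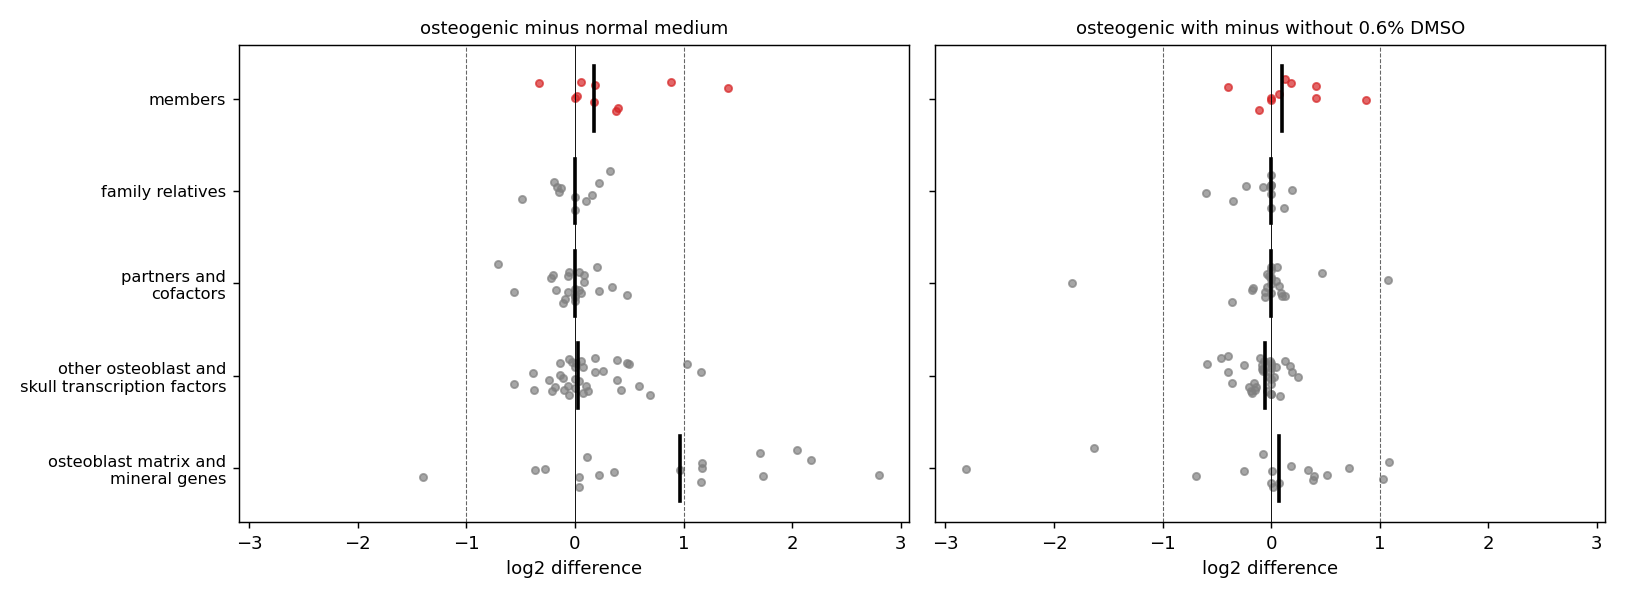
Points are the log2 changes of single genes (x axis, same scale in both panels) in each list (y axis), with the step to osteogenic medium on the left and the step to 0.6% DMSO on the right, with list medians as black bars and 2-fold changes dashed. "Members" are the 10 genes. The matrix and mineral genes reach from -1.40 to 2.80 on the left with a median of 0.97, while the 3 other lists have medians of 0, 0 and 0.02.

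Other genes of the same regulatory setting were read from lists that share no gene with the 10. Of 19 family relatives (other Dlx, Msx, Twist, Mef2, Sp and Runx genes and Zfp423), 17 had a probe set with their symbol alone. Of these, 11 were above the floor in osteogenic or normal medium and none changed 2-fold, with a median of 0. Runx3, a Runt-domain factor that pairs with Cbfb, was at 0.32 and Runx1 at 0.22 in that comparison, and both were at 0 with DMSO. In the first comparison the other probe set of Runx3 was at 0 and the other 5 of Runx1 were between 0 and 0.05. Sp4, a relative of Sp7, was at -0.19 with osteogenic medium and 0.19 with DMSO, and its other probe set was at 0 at both steps. Mef2a, the relative of Mef2c, went the other way, at -0.13 and -0.23, with its other 5 probe sets between -0.45 and 0 in the second comparison. Sp1, which lies beside Sp7 in the genome, was at 0.10 and 0. Between normal medium and osteogenic medium with DMSO, Zfp423 was the 1 of 12 relatives that changed 2-fold, a fall, beside 1.34% of all genes fallen.

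Partners and cofactors of the 10 numbered 28, with 23 above the floor in either main comparison. None changed 2-fold with osteogenic medium, and with DMSO 1 rose and 1 fell, beside 0.0525% of all genes risen and 0.552% fallen. The fall was that of Id4, a partner that blocks DNA binding of basic helix-loop-helix dimers such as those of Twist1, by 1.83, from 9.95 to 8.12, after a first step of -0.71. Its other probe sets were at -1.97 and -1.72. Id3, of the same family, was higher at both steps, by 0.48 and 0.47, and Id1 was at 0.34 with osteogenic medium. Ndn, necdin, was at -0.56 with osteogenic medium, with its other 7 probe sets between -0.48 and 0. The corepressor Tle4, which acts with Runt-domain and homeobox factors, rose from 4.27 to 5.34 with DMSO, although both of its other probe sets were under the floor. Tcf4, a dimer partner of Twist1, was at -0.36 with DMSO, and the class II histone deacetylases Hdac4, Hdac5 and Hdac7, which bind Mef2 factors, stayed between -0.04 and 0.07 in that comparison. With osteogenic medium Hdac4 was at -0.22, Hdac5 at 0.20 and Hdac7 at -0.18. Of these, Hdac4 and Hdac5 were beyond the SD between probe sets.

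Of 42 other transcription factors of osteoblasts and the skull, 37 had such a probe set and 36 were above the floor. With osteogenic medium 2 rose, beside 0.473% of all genes. These were Hes1, a Notch target, by 1.04, and Gli1, a Hedgehog target, by at least 1.16, as Gli1 was under the floor in normal medium. Bhlhe40 was at 0.69 and Fosl1, an AP-1 subunit, at 0.59, with its other probe set at 0.13. With DMSO none changed 2-fold and the median was -0.05, with 22 lower and 7 higher. Over all 11423 genes, 3462 were lower, 4627 higher and 3334 equal. Among the 22 was Fosl1 at -0.59, back to its value in normal medium and with its other probe set at -0.13. The CCAAT-binding factors Cebpd and Cebpb were at -0.47 and -0.39 and the skull factor Foxc1 at -0.40. Their other probe sets were at -0.18 for Cebpd, -0.29 for Cebpb and -0.51 for Foxc1. Centring the arrays adds 0.04 to each change with DMSO and takes 0.04 from each with osteogenic medium. Over both steps Lef1, a Wnt effector, was at 0.73 and Alx1, a factor of the front of the skull, at -0.59. The other probe set was at 0.42 for Lef1 and at -0.33 for Alx1.

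Matrix and mineral genes, several of which Sp7 and the Dlx factors are known to act on, were read last. Of 17 above the floor, 8 rose and 1 fell with osteogenic medium, with a median of 0.97, beside 0.473% of all genes risen and 0.184% fallen. With DMSO 2 rose, 2 fell and the median was 0.08, beside 0.0525% risen and 0.552% fallen. Over both steps 8 rose and 2 fell, beside 0.604% risen and 1.34% fallen. Alpl, the alkaline phosphatase, read 6.61, 8.31 and 9.02 and Ibsp, bone sialoprotein, read 8.00, 10.17 and 10.56, so both had the order of Sp7 and Dlx3. Ifitm5, a membrane protein of osteoblasts, read 4.24, 6.28 and 7.37. Smpd3, a sphingomyelinase needed for mineral, read 5.01, 6.74 and 7.76, and the parathyroid hormone receptor Pth1r read 7.86, 9.02 and 9.41. Tnfrsf11b, the decoy receptor osteoprotegerin, had the largest rise of the list with osteogenic medium, 2.80, and was at 0.08 with DMSO. Its other probe set was at 2.85 with osteogenic medium and at 3.41 over both steps. That probe set was thus higher again with DMSO, unlike the leading one. Phex, a peptidase of osteoblasts and osteocytes, rose by at least 1.16 with osteogenic medium, while its other probe set was at 0, and it was at -0.07 with DMSO. Omd was higher by 0.97 and 0.34 and so rose over both steps, by 1.31. Dmp1 read 6.65, 7.83 and 5.01 and Mmp13 read 7.72, 6.32 and 4.69, which are other orders than that of Sp7. The earlier results on these matrix genes were known when the lists were drawn up.

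Genes whose steps were closest to those of Sp7, Dlx3 and Mef2c, the only members with a step of at least 0.5, were found by the Euclidean distance between their 2 main changes, over 3 arrays and 11203 genes. Closest to Sp7 were Omd at a distance of 0.11, which encodes the bone proteoglycan osteomodulin, Tmem119 at 0.12, a membrane protein of osteoblasts and microglia, and Mms22l at 0.13, a protein of replication fork repair. Omd read 8.85, 9.81 and 10.15. Closest to Dlx3 were Pdgfa at 0.10, a growth factor, Sgms2 at 0.11, a sphingomyelin synthase, and Ptch1 at 0.20, the Hedgehog receptor and a target of that pathway. Closest to Mef2c were Thbd at 0.15, the thrombin receptor thrombomodulin, Lgals2 at 0.18, a galectin, and Tmem243 at 0.21. With 3 arrays a pattern has only these 2 numbers, so a short distance is a description of these arrays.

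**Figure D4:**
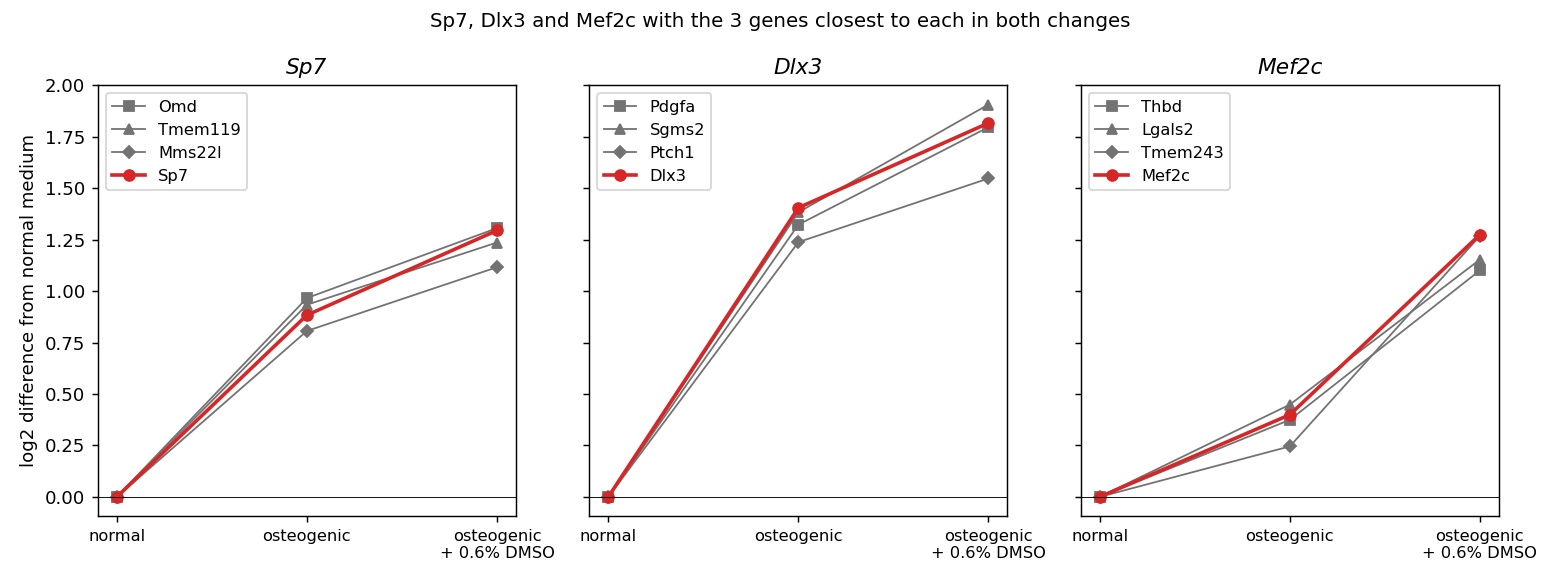
Lines give the log2 difference from normal medium (y axis) on the 3 arrays (x axis) for Sp7, Dlx3 and Mef2c (red) and the 3 genes closest to each (grey). The red lines end at 1.30, 1.82 and 1.27, and Mef2c and its neighbours gain most between osteogenic medium and osteogenic medium with DMSO.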

How the data were processed

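RNA of 3 cultures was read on Affymetrix GeneChip Mouse Genome 430 2.0 arrays, after acceptance at an RNA integrity number over 9.5 per the labels' protocols. The deposited values of 45101 probe sets are log2 values, a scale read from their range of 0.652 to 13.4. How the authors summarised and normalized them is not given in the sources used here.

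Probe sets were named from the platform annotation of 2016. Of 45037 probe sets that are not array controls, 34945 had 1 gene symbol, 932 had several and the rest were unnamed here. Values under the floor were raised to it, and a change with 1 array under the floor is written "at least". The share of genes past each fold counts genes above the floor on at least 1 of the compared arrays. No p-value was computed. The members and lists were chosen with earlier results of these data known.

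Genes named are the 10 members, in each other list those changed 2-fold and up to 4 with the largest changes per comparison, and the 3 genes closest to a member with a step of at least 0.5. A gene selected in more than 1 comparison is not described in each. Some list members are named beside these for their known relation to a member, chosen after their values were seen. Alternatives were other floors, other choices of probe set, other scalings and a 1.5-fold threshold. The computation was tested on simulated data for osteogenic against normal medium over 18193 genes, where all 100 genes raised by 1.5 and 0 of 50 raised by 0.5 were counted. The changed genes were drawn from those well above the floor in normal medium, and all probe sets of a gene were moved alike. The simulation therefore does not cover genes as dim as Dlx3 and Mef2c or probe sets that disagree. Python 3.11.15, numpy 2.4.6, pandas 2.3.3, matplotlib 3.10.9, R 4.3.3 and limma 3.58.1 (cyclic loess) were used.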

Additional observations from a re-analysis of the deposited data

How the results depend on the processing

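The count of 1 of the 10 genes risen 2-fold with osteogenic medium, Dlx3, was 0 with the floor at the 60th percentile (Dlx3 then at 0.94, a bound) and 0 with the median over all probe sets (0.75), and 2 at a 1.5-fold threshold. With DMSO against without, the count of 0 became 1 at 1.5-fold, for Mef2c. With DMSO against normal medium, the count of 3 was 1 with the median over all probe sets, where only Sp7 remained (Dlx3 at 0.99, Mef2c at least 0.86, a bound). It stayed within 1.5 times under the other alternatives, although with the floor at the 60th percentile Mef2c was at least 0.64 higher and no longer counted. Quantile normalization, cyclic loess, median centring, no floor, the floor at the 25th percentile and probe sets without a suffix left all 3 counts as they were. Of 230 single changes under an alternative, 221 moved by less than the SD between probe sets, 9 moved by more, all of Dlx3 or Mef2c, and 3 changed sign, all of Msx2 or Twist1 with osteogenic medium. Many of the 230 could not move. The leading probe sets were above the floor on all 3 arrays, so the lower floor and no floor altered nothing. The median over probe sets altered nothing for the 5 genes with 1 probe set. Median centring left the changes between DMSO and normal medium as they were. Sp7 ranged from 0.84 to 0.90 with osteogenic medium and from 0.41 to 0.45 with DMSO. No paired analysis was possible because each condition had 1 array. Signal over background limits Dlx3, Dlx6, Msx1 and Mef2c most, as they lie nearest to the floor.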
